A study of Mus musculus with 8 samples.

Results

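Integrator is a large complex, found across animals, that travels with RNA polymerase II and cuts the RNA the polymerase is making. It forms the 3′ ends of small nuclear RNAs (snRNAs), the RNA parts of the splicing machinery, and it ends transcription early at many protein-coding genes. The genes described here are 10 of its subunit genes, *Ints1*, *Ints2*, *Ints4*, *Ints5*, *Ints6*, *Ints7*, *Ints8*, *Ints9*, *Ints10* and *Ints11*, taken by symbol out of 40840 genes counted in testis RNA. The list was chosen by a measured value, the log2 fold change of *Ints8*, which had already been seen to be lower in *Tra2b-cPEko* testes in these same data. The level of *Ints8* is therefore given as a description without a test, and the question put to the data is whether the other 9 genes moved with it.

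The RNA came from whole testes of 8 independent mice collected at 12 days of age (P12), 4 wild type and 4 *Tra2b-cPEko*, all on a C57BL/6J background. *Tra2b* encodes the splicing activator Tra2β, and its poison exon is a non-coding exon whose inclusion sends the transcript to nonsense-mediated decay. Per the study's methods, wild type mice were *Tra2bPE* fl/+ and carried no Cre, while *Tra2b-cPEko* mice were *Tra2b* fl/- with *Vasa-Cre*, which is active in germ cells only. The somatic cells of a *Tra2b-cPEko* testis thus still had a poison exon on their floxed allele, and effects of the Cre transgene and of the lost exon cannot be told apart here. Each library held between 36757386 and 59101569 reads on genes, and levels are given as CPM, the count of a gene scaled to a fixed library total after trimmed-mean (TMM) normalisation.

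*Tra2b* itself measured 164 ± 8.93 CPM in wild type and 198 ± 8.49 CPM in *Tra2b-cPEko* testes (mean ± SD, n = 4 each), with no overlap between the genotypes, an adjusted p of 0.0552 in edgeR and 0.000195 in DESeq2, and a call in 9 of 20 alternative settings. *Tra2a*, which encodes the related splicing factor Tra2α, fell by 0.89 on the log2 scale, from 129 ± 15.3 to 69.5 ± 3.36 CPM (edgeR adjusted p = 0.00231). Counts over a whole gene cannot show whether the poison exon was present, so these values do not check the genotype directly. The library of *Tra2b-cPEko* replicate C held 141 CPM of 6 epididymal marker genes, against at most 0.62 CPM in each of the other 7 libraries. Values without that library are given for *Ints8*, *Ints11* and the marker sums that did not overlap between genotypes.

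The subunits fall into modules. *Ints1*, *Ints2* and *Ints7* encode the backbone, *Ints5* and *Ints8* a shoulder that helps to hold protein phosphatase 2A (PP2A) on the complex, and *Ints6* a subunit of the same phosphatase module. *Ints11* encodes the endonuclease that cuts RNA, *Ints9* its inactive partner and *Ints4* the protein that holds that pair, while *Ints10* belongs to the arm of the complex. All 10 genes were well measured, with 1676 to 18150 reads per gene and library. Within a genotype their levels varied by 1.29% to 7.80% of the mean, the highest being that of *Ints8* in wild type mice.

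Because Tra2β binds RNA rich in AGAA, the coding sequence of each subunit was searched for these 4 letters on the sense strand, with overlapping matches counted. The 30-base stretch of the GENCODE canonical coding sequence with the most matches is shown for *Ints11* and *Ints5*, whose values did not overlap between genotypes, and for *Ints2*, whose stretch holds more matches than that of any other of the 10. Matches are in capitals, all 3 stretches lie within 1 coding exon, and positions are on GRCm39.
Ints11, chr4:155971623-155971652, plus strand: cttccgaaagtgggcaggaaatgAGAAGAA
Ints5, chr19:8872295-8872324, plus strand: gtccgggcccacctagctgccctAGAAGAA
Ints2, chr11:86106478-86106507, minus strand: actccaagtaaAGAAacAGAAGAAggAGAA

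*Ints8* held 29 matches in 2985 coding bases, or 9.72 per kb, where the median of 18794 mouse coding sequences was 7.87 per kb. That density lay at percentile 65.2 of all coding sequences. The density was 7.78 per kb in *Ints11* and 3.93 per kb in *Ints5*, and the stretches of both hold 2 matches, where 76.7% of coding sequences have a stretch with at least 2. The stretch of *Ints2* holds 4 matches, where 7.86% of coding sequences have one with at least 4. Among the 10 genes the highest density was that of *Ints10*, at 12.2 per kb. A match in a coding sequence is a description of its letters and does not show that Tra2β binds there.

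*Ints8* (chr4:11196821-11254266, minus strand, 27 exons in the canonical transcript) was lower in *Tra2b-cPEko* testes. Its normalised levels in wild type mice were 133, 125, 116 and 111 CPM in replicates A to D, and in *Tra2b-cPEko* mice they were 93.7, 99.9, 95.6 and 92.1 CPM. The genotypes did not overlap, and the wild type mice were spread more widely than the *Tra2b-cPEko* mice. The means were 121 ± 9.46 and 95.3 ± 3.35 CPM (SD, n = 4 each), a log2 fold change of -0.35 (standard error 0.06), and the log2 fold change was -0.35 without *Tra2b-cPEko* replicate C. In whole testes, fewer cells of a type that expresses a gene and less of its RNA per cell cannot be told apart.

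**Figure D1:**
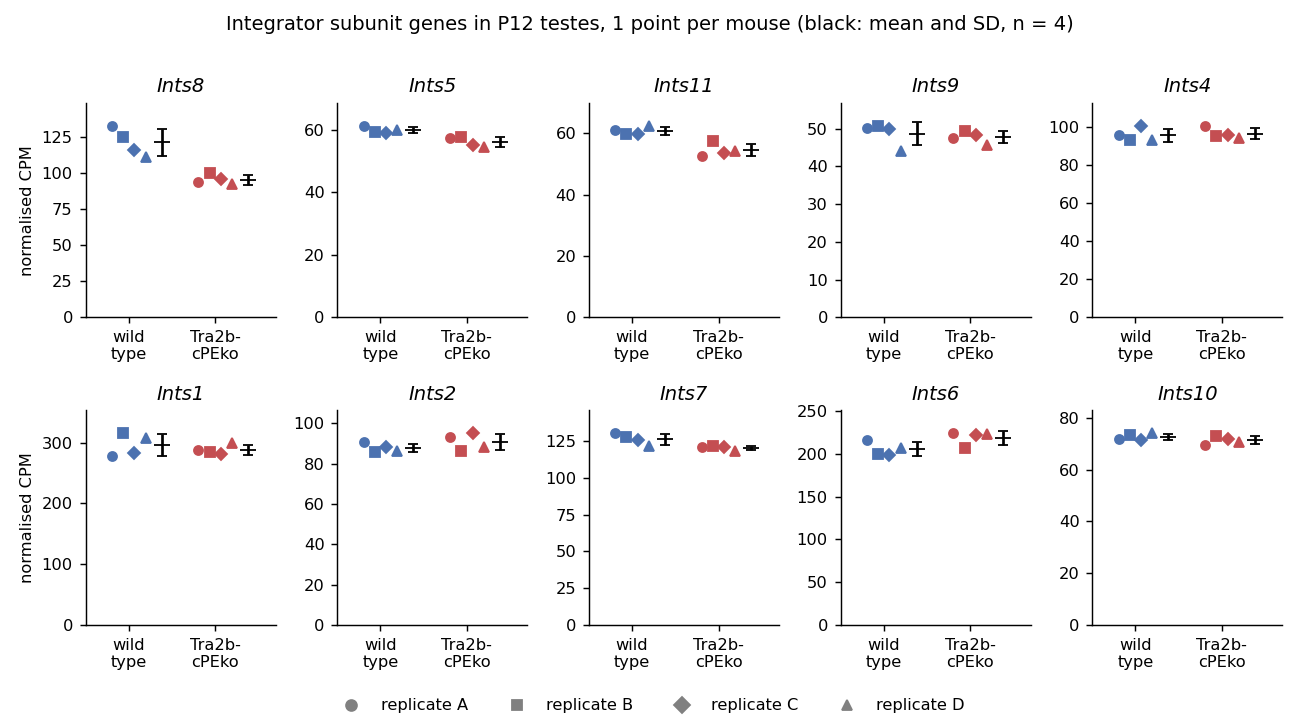
Normalised CPM of the 10 Integrator subunit genes (vertical axes from 0) in 4 wild type (blue) and 4 *Tra2b-cPEko* (red) testes, 1 point per mouse, with the mean and SD in black. *Ints8*, *Ints5* and *Ints11* show no overlap between genotypes, with *Ints8* at 111 to 133 CPM in wild type and 92.1 to 99.9 CPM in *Tra2b-cPEko* mice.

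None of the other 9 genes was called lower or higher (edgeR quasi-likelihood test, adjusted p under 0.05 over 19104 genes), where 0.157% of all genes tested were called, 0.0262% lower and 0.131% higher. Of the 9, 6 had a log2 fold change under 0 and 3 over 0, against 50.3% of all genes under 0. Their fold changes ran from -0.16 to 0.09, with a median of -0.03 beside a median of -0.00 over all genes tested. At an unadjusted p under 0.05 there was 1 of the 9, *Ints11*, where 15.3% of all genes passed in either direction and 7.07% with a lower level. DESeq2, which the study used, also called *Ints11* and no other of the 9, where it called 2.79% of all genes it tested in either direction and 1.14% lower. The point estimate of *Ints8*, -0.35, lay outside the 95% interval of all 9. Their lowest lower bounds were -0.26 for *Ints11* and -0.18 for the rest. Since *Ints8* chose the list, this is a description and not a test. The 95% interval of *Ints8* itself, -0.47 to -0.23, overlapped that of *Ints11*.

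**Figure D2:**
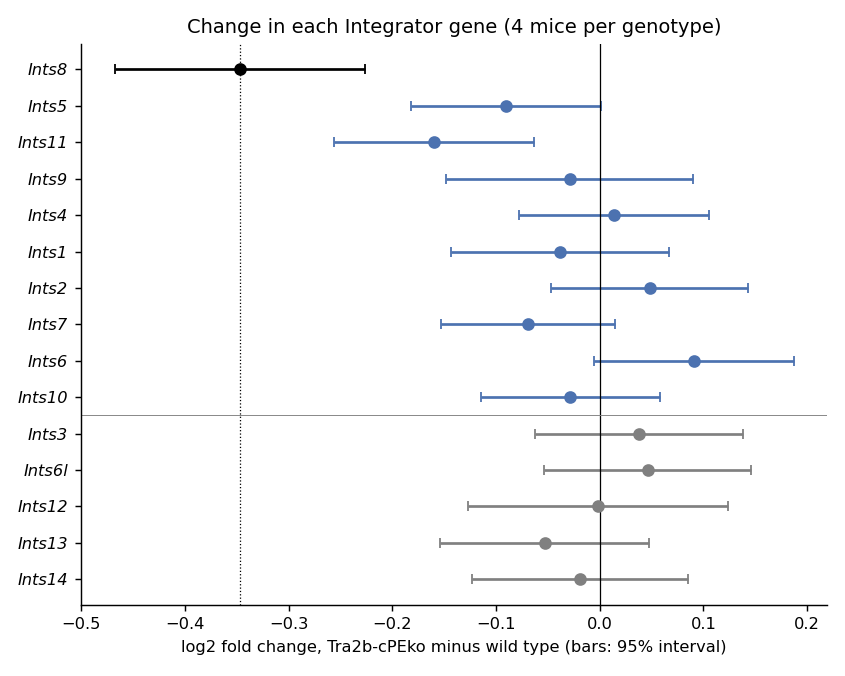
Log2 fold change, *Tra2b-cPEko* minus wild type, of 10 Integrator subunit genes (above the grey line) and 5 further Integrator genes (below it), with 95% intervals from the edgeR fit on 4 mice per genotype. The dotted line marks the point estimate of *Ints8*, -0.35, and no interval of another gene reaches it. The interval of *Ints8* itself overlaps that of *Ints11*.

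The closest to *Ints8* among the others was *Ints11*, the catalytic subunit (chr4:155953994-155973562, plus strand). Its levels were 61.2, 59.9, 59.7 and 62.4 CPM in wild type replicates A to D and 52.7, 57.3, 53.6 and 54.3 CPM in *Tra2b-cPEko* replicates A to D. All *Tra2b-cPEko* mice were below all wild type mice, with replicate B nearest to them. The log2 fold change was -0.16 (95% interval -0.26 to -0.06), with an adjusted p of 0.142 in edgeR and 0.0258 in DESeq2. The two-sided exact permutation p was 0.0286, the smallest that 4 mice against 4 can give. Any gene without overlap gets this p, so it only restates the separation. Without *Tra2b-cPEko* replicate C the log2 fold change was -0.15. GENCODE lists 47 transcripts of *Ints11*, 34 of them as targets of nonsense-mediated decay, and counts per gene do not separate them.

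Over all its GENCODE transcripts, *Ints11* shares 84.0% of its exon bases with *Pusl1*, a pseudouridine synthase-like gene on the other strand. The longest match of the canonical *Ints11* transcript to *Pusl1* was 493 bases, 20.8% of that transcript. Counting used NCBI annotation, in which the overlap was not measured. The libraries were stranded, but the sources used here do not say if genes were counted by strand. If strand was ignored, reads on both genes may have been set aside as ambiguous, and other reads of the pair may be mixed. *Pusl1* measured 17.1, 18.5, 17.3 and 18.6 CPM in wild type and 16.4, 15.8, 16.0 and 15.5 CPM in *Tra2b-cPEko* mice, also without overlap. Its log2 fold change was -0.17 (edgeR adjusted p = 0.231). Whether the values of *Ints11* carry reads of *Pusl1*, or lack reads that were set aside, was not tested.

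*Ints5*, the partner of *Ints8* in the shoulder (chr19:8870363-8875252, plus strand, 2 exons), was the third gene without overlap. It measured 61.3, 59.2, 59.1 and 59.9 CPM in wild type and 57.5, 57.7, 55.2 and 54.5 CPM in *Tra2b-cPEko* mice. The lowest wild type mouse and the highest *Tra2b-cPEko* mouse were close, at 59.1 and 57.7 CPM. The log2 fold change was -0.09 (95% interval -0.18 to 0.00), with an edgeR adjusted p of 0.334. Its exact permutation p was 0.0286, the value that any gene without overlap gets. A near-identical annotated copy, *Gm13126*, matches 92.7% of the *Ints5* transcript at 96.1% identity, so reads that fit both may not have been counted as unique. Thus 2 of the other 9 genes were lower without overlap and none was higher, where 8.54% of all genes tested had no overlap, 4.18% lower and 4.36% higher. Exact permutation tests were run on 35 named genes, and their p-values are not adjusted.

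The other genes of the cutting module overlapped between genotypes, and whether they differed from *Ints11* was not tested. *Ints9* (chr14:65187487-65277298, plus strand) measured 50.1, 50.7, 49.9 and 44.0 CPM in wild type and 47.5, 49.4, 48.3 and 45.6 CPM in *Tra2b-cPEko* mice, with a log2 fold change of -0.03 (edgeR adjusted p = 0.844). *Ints4* (chr7:97130089-97196205, plus strand) had a log2 fold change of 0.01 (95% interval -0.08 to 0.11), from 95.5 ± 3.30 CPM in wild type to 96.5 ± 2.76 CPM in *Tra2b-cPEko* mice. *Ints4* shares 18.4% of its exon bases with *Aamdc* on the other strand, whose log2 fold change was -0.12 (edgeR adjusted p = 0.357).

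The backbone genes overlapped between genotypes as well. *Ints7* (chr1:191307748-191355803, plus strand) was the nearest to separation, with 130, 128, 126 and 121 CPM in wild type and 121, 122, 121 and 118 CPM in *Tra2b-cPEko* mice. Only wild type replicate D lay within the range of the other genotype, and the log2 fold change was -0.07 (95% interval -0.15 to 0.02, edgeR adjusted p = 0.418, exact permutation p = 0.0571). *Ints1* (chr5:139732296-139761481, minus strand), the gene with the most reads of the 10, measured 296 ± 18.1 and 288 ± 8.09 CPM, a log2 fold change of -0.04 (edgeR adjusted p = 0.744). *Ints2* (chr11:86101507-86148416, minus strand) had a log2 fold change of 0.05 (edgeR adjusted p = 0.630), and 10.2% of its exon bases are shared with the antisense transcript *Brip1os*, at 0.07.

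*Ints6*, of the phosphatase module (chr14:62913779-62998666, minus strand), had the highest fold change of the 10. It measured 217, 200, 199 and 207 CPM in wild type and 224, 206, 222 and 223 CPM in *Tra2b-cPEko* mice. The genotypes overlapped through *Tra2b-cPEko* replicate B, and the log2 fold change was 0.09 (95% interval -0.01 to 0.19, edgeR adjusted p = 0.351, exact permutation p = 0.0857). *Ints10*, of the arm (chr8:69246581-69284319, plus strand), measured 72.6 ± 1.22 and 71.2 ± 1.56 CPM, a log2 fold change of -0.03 (edgeR adjusted p = 0.775).

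With the other 9 genes as a reference within each library, *Ints8* still stood lower in *Tra2b-cPEko* mice. Its log2 level minus the mean log2 level of the other 9 was 0.42, 0.35, 0.25 and 0.20 in wild type replicates A to D and -0.04, 0.05, -0.01 and -0.04 in *Tra2b-cPEko* replicates A to D. In CPM, which take no account of gene length, *Ints8* was above the mean of the others in all 4 wild type mice and near it in all 4 *Tra2b-cPEko* mice. The comparison is therefore between genotypes and does not rank *Ints8* among the subunits. It made up 10.3% ± 0.68 of the summed CPM of the 10 genes in wild type and 8.36% ± 0.33 in *Tra2b-cPEko* mice. The sum itself was 1174 ± 18.3 CPM in wild type and 1140 ± 5.88 CPM in *Tra2b-cPEko* mice. The CPM of *Ints5* was 46.2% to 53.8% of that of *Ints8* in wild type and 57.8% to 61.4% in *Tra2b-cPEko* mice. These ratios rest on the fall in *Ints8* that chose the list and are given without a test.

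**Figure D3:**
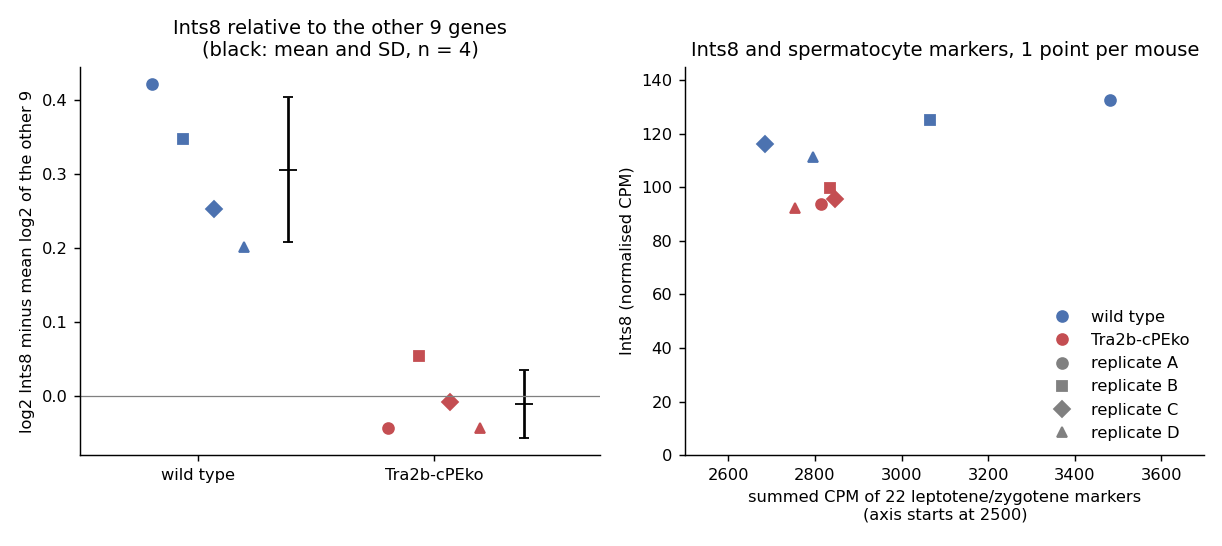
Left, log2 CPM of *Ints8* minus the mean log2 CPM of the other 9 genes in each mouse, with the mean and SD of 4 mice in black. Right, *Ints8* CPM (axis from 0) against the summed CPM of 22 leptotene and zygotene marker genes (axis not from 0), where wild type replicates A and B are highest on both axes. The sums of pachytene and of erythroid markers, not drawn, were also highest in wild type replicates A and B.

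The wild type mice with the most *Ints8* RNA also had the most RNA of early meiotic genes. The summed level of 22 leptotene and zygotene markers was 3482 and 3065 CPM in wild type replicates A and B, 2685 and 2795 CPM in replicates C and D, and 2754 to 2847 CPM in *Tra2b-cPEko* mice. This split of the wild type mice was not particular to early meiotic genes. Pachytene sums were 616 and 649 CPM in A and B against 348 and 409 CPM in C and D. Erythroid sums were 97.7 and 138 CPM against 40.4 and 26.2 CPM. Undifferentiated spermatogonia sums went the other way, at 408 and 397 CPM against 473 and 478 CPM. Of the 22 leptotene and zygotene markers 17 had a log2 fold change under 0, with a median of -0.10. That list holds *Stag3*, *Mei1* and *Mael*, which the study had reported as lower in these same libraries. With the mean log2 level of this list as a covariate the log2 fold change of *Ints8* was -0.29, with the pachytene list -0.30 and with the undifferentiated spermatogonia list -0.42. These covariates were chosen after seeing the data, and the differentiating spermatogonia list was not used as one. Because the leptotene and zygotene list holds genes reported as lower in *Tra2b-cPEko* testes, it may itself carry the genotype. Such fits cannot separate composition from genotype. The part of cell composition in the level of *Ints8* was not tested.

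Of 11 marker lists of cell types, 2 had summed levels that did not overlap between genotypes. The sum of 9 differentiating spermatogonia markers was 1120 to 1175 CPM in wild type and 958 to 1081 CPM in *Tra2b-cPEko* mice, with all 9 at a log2 fold change under 0. The sum of 9 macrophage markers was 140 to 174 CPM in wild type and 174 to 207 CPM in *Tra2b-cPEko* mice, ranges that narrowly missed overlapping, with all 9 at a log2 fold change over 0. *Tra2b-cPEko* replicate C, the library with epididymal reads, had the lowest differentiating spermatogonia sum and the highest macrophage sum. Without it the *Tra2b-cPEko* sums were 1024 to 1081 CPM and 174 to 190 CPM. The part of either shift in the level of *Ints8* was not tested. The sums of the other lists overlapped. The 8 Leydig markers summed to 600 to 648 CPM in wild type and 627 to 843 CPM in *Tra2b-cPEko* mice, with a median log2 fold change of 0.43. The 5 erythroid markers summed to 26.2 to 138 CPM and 25.1 to 82.4 CPM, with all 5 under 0 and a median of -0.54. The 12 tested pachytene markers had a median of -0.19, with 10 under 0. All 8 endothelial markers were over 0, with a median of 0.05, and of 10 peritubular and stromal markers 1 was under 0, with a median of 0.09. Undifferentiated spermatogonia and Sertoli markers, 12 genes each, had medians of -0.05 and -0.02. DESeq2 called 3 of 22 leptotene and zygotene, 2 of 9 differentiating spermatogonia, 2 of 8 Leydig and 1 of 9 macrophage markers. It called no marker of the other lists, and 2.79% of all genes it tested. The leptotene and zygotene list holds genes that the study had called lower in these libraries, so its count is not independent of these data. EdgeR called 1 differentiating spermatogonia marker, lower, and no other marker, where 0.0262% of all genes tested were called lower. All of the 12 Sertoli, 8 Leydig, 12 undifferentiated and 9 differentiating spermatogonia markers passed the filter on low counts.

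*Ints8* also overlaps a gene on the other strand. Its exons share 852 bases, 8.68% of its exon bases, with the exons of the cyclin gene *Ccne2* (chr4:11190303-11204947, plus strand) in 4 intervals. *Ccne2* measured 80.6, 65.3, 60.4 and 66.2 CPM in wild type and 57.3, 70.4, 59.4 and 54.8 CPM in *Tra2b-cPEko* mice. Unlike *Ints8* it overlapped between genotypes, with a log2 fold change of -0.17 (95% interval -0.39 to 0.05, edgeR adjusted p = 0.436). It was highest in wild type replicate A, as *Ints8* was. Reads that the counting set aside as ambiguous, which would include reads on both genes if strand was ignored, were 0.468% to 0.635% of all reads of a library.

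Levels of different subunits can be compared only per length, and the order then depends on which length is used. Per kilobase of all annotated exon bases, *Ints1* was highest in wild type testes at 19.6 ± 1.20 CPM per kb, followed by *Ints5* at 18.3 ± 0.31, *Ints11* at 14.4 ± 0.30, *Ints7* at 12.8 ± 0.38, *Ints8* at 12.4 ± 0.96 and *Ints6* at 11.7 ± 0.46 CPM per kb. *Ints2*, *Ints4*, *Ints10* and *Ints9* followed, at 7.35 down to 3.92 CPM per kb. The wild type ranges of *Ints1* and *Ints5*, of *Ints7* and *Ints8*, of *Ints8* and *Ints6*, and of *Ints2* and *Ints4* overlapped, so those neighbours were not separated. *Ints8* was then the fifth of the 10 in wild type and the sixth in *Tra2b-cPEko* testes, at 9.71 ± 0.34 CPM per kb. By the longest transcript it measured 21.0 ± 1.64 CPM per kb in wild type, the second value, in a range that overlapped that of *Ints6*. In *Tra2b-cPEko* mice it measured 16.5 ± 0.58 CPM per kb by that length, in a range that overlapped those of *Ints5*, *Ints7* and *Ints11*. By the canonical transcript it was the second in both genotypes, at 37.6 ± 2.93 and 29.5 ± 1.04 CPM per kb, and in wild type mice its range overlapped that of *Ints1*.

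**Figure D4:**
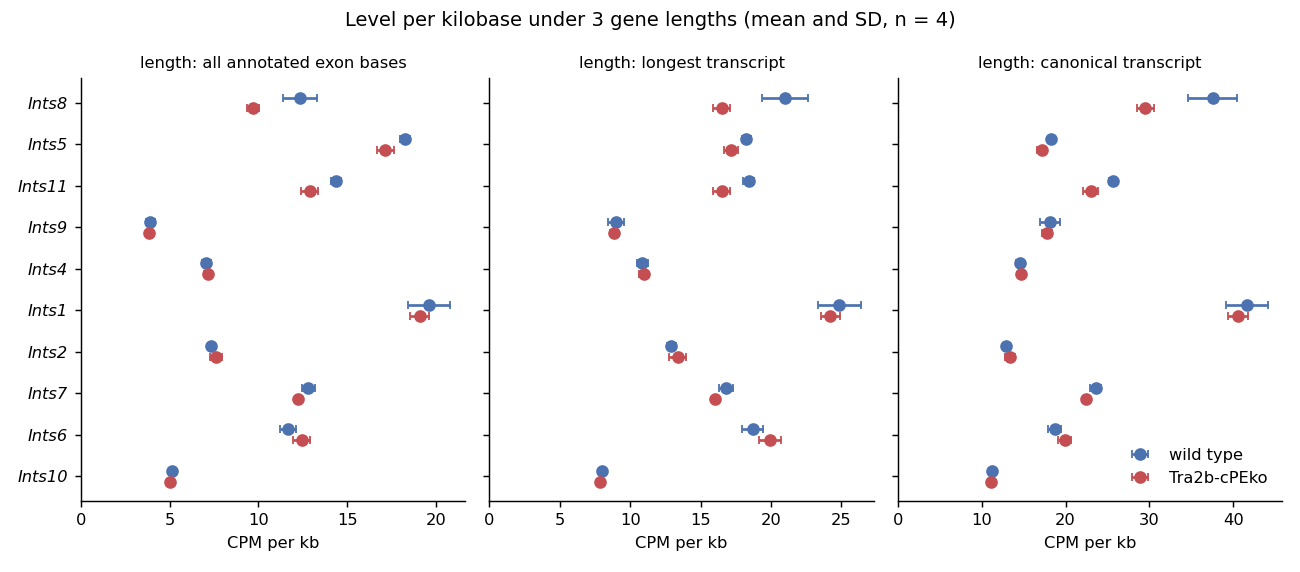
Level of each of the 10 genes in CPM per kb (horizontal axes from 0), mean and SD of 4 wild type (blue) and 4 *Tra2b-cPEko* (red) mice, under 3 definitions of gene length. *Ints8* changes place among the subunits with the length chosen, while *Ints1* has the highest mean under all 3, with a wild type range that overlaps that of *Ints5* over all exon bases and that of *Ints8* by the canonical transcript.

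The 5 further Integrator genes found in the tables gave no call by edgeR or DESeq2, and none had an unadjusted edgeR p under 0.05. *Ints3*, shared with the single-strand DNA binding complex SOSS, had a log2 fold change of 0.04, *Ints6l*, the paralogue of *Ints6*, 0.05, *Ints12* -0.00, and the arm subunits *Ints13* and *Ints14* -0.05 and -0.02. The lowest edgeR adjusted p of these was 0.614, and all 5 overlapped between genotypes. Their 95% intervals reached no lower than -0.15, so the point estimate of *Ints8*, the gene that chose the list, lay outside each of them. *Ints14* shares 41.2% of its exon bases with *Hacd3* on the other strand, at a log2 fold change of 0.02.

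Genes that work with Integrator were read from 9 lists with 77 genes in the tables, of which 68 were tested. EdgeR called none of the 68. DESeq2 called 1, *Ppp2cb*, where it called 2.79% of all genes it tested in either direction and 1.14% lower. At an unadjusted p under 0.05 there were 12 lower and 3 higher, or 22.1% of the 68, where 15.3% of all genes passed, and 7.07% of all genes passed with a lower level. The median log2 fold change of the 68 was -0.04, beside -0.00 over all genes tested.

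The PP2A core enzyme, which docks on Integrator and removes phosphates from the polymerase, had all 4 of its genes under 0, with a median of -0.09. *Ppp2cb*, a catalytic subunit, measured 88.6, 86.1, 90.4 and 89.7 CPM in wild type and 77.7, 81.1, 78.3 and 78.8 CPM in *Tra2b-cPEko* mice, without overlap. The log2 fold change of *Ppp2cb* was -0.17 ± 0.04 (standard error), and its adjusted p was 0.102 in edgeR and 0.00287 in DESeq2. *Ppp2r1b*, a scaffold subunit, was also without overlap, at 72.1 ± 5.03 and 65.8 ± 0.40 CPM (edgeR adjusted p = 0.258). Their paralogues *Ppp2ca* and *Ppp2r1a* had log2 fold changes of -0.04 and -0.04 and overlapped. Of all genes tested, 4.18% were lower without overlap.

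Of the 13 RNA polymerase II subunit genes 12 were under 0, with a median of -0.09, and 5 had an unadjusted p under 0.05 in that direction, where 50.3% of all genes tested were under 0 and 7.07% passed in that direction. *Polr2g* and *Polr2d*, which encode the stalk of the enzyme, had log2 fold changes of -0.16 and -0.14 (edgeR adjusted p = 0.235 and 0.267). The exception was *Polr2a*, the largest subunit, at 0.11 (edgeR adjusted p = 0.267). In the pausing factors NELF and DSIF 5 of 6 genes were under 0, *Nelfcd* and *Nelfa* at -0.14 and -0.11 (edgeR adjusted p = 0.247 and 0.312). None of these passed the adjusted threshold.

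The other lists were nearer to the median of all genes. The 10 genes of the elongation factor P-TEFb and its 7SK inhibitor had a median of 0.02, with *Aff4*, a scaffold of the super elongation complex, at 0.17 and without overlap (edgeR adjusted p = 0.215) and *Mepce*, which caps 7SK RNA, at -0.10 (edgeR adjusted p = 0.326). Cleavage and polyadenylation genes, 18 in all, had a median of -0.04, with *Nudt21* at -0.12 and without overlap (edgeR adjusted p = 0.200) and *Cstf2* at -0.10 (edgeR adjusted p = 0.326). Over all genes tested, 4.18% were lower and 4.36% higher without overlap. The 12 genes of snRNA transcription had a median of 0.02, with *Pou2f1* at 0.14 and *Ice1* at 0.09 (edgeR adjusted p = 0.309 and 0.387). The 3 SOSS partners of *Ints3* had a median of -0.04, and *Brat1*, a binding partner of *Ints9* and *Ints11*, stood at 0.00.

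**Figure D5:**
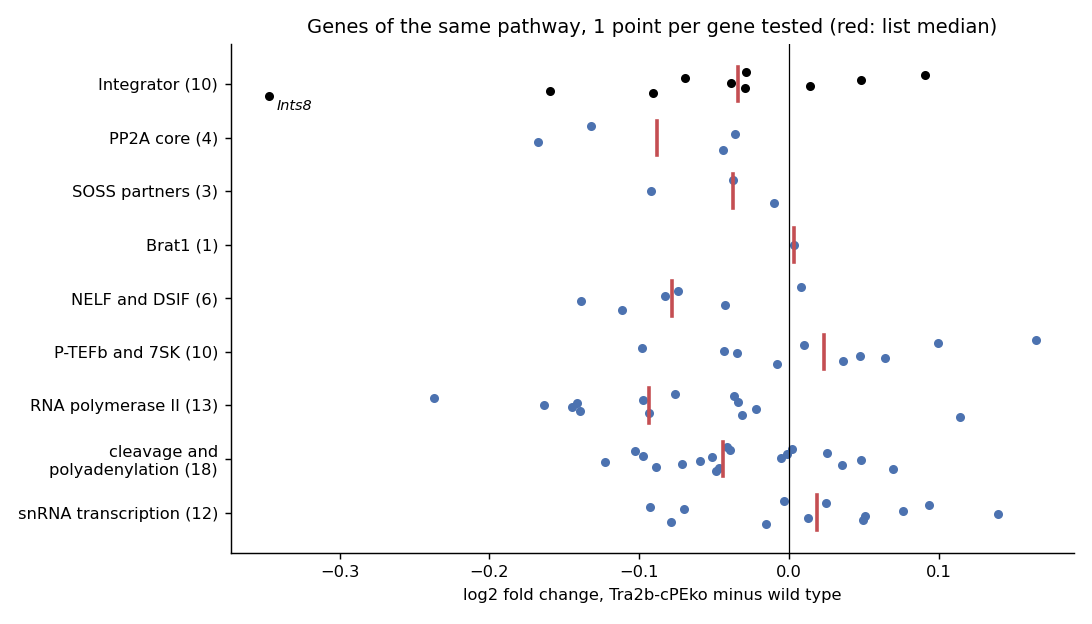
Log2 fold change, *Tra2b-cPEko* minus wild type, of the 10 Integrator subunit genes (black) and of the tested genes of 8 related lists (blue), 1 point per gene, with the median of each list in red and its number of genes in brackets. The point estimate of *Ints8*, the gene that chose the list, is -0.35 and lies below that of every gene of the related lists.

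The snRNAs that Integrator cuts could not be read from these libraries, and early ends of protein-coding transcripts were not analysed. Poly(A) selection leaves out mature snRNAs, and 3 of the 10 snRNA genes listed had no read in any library. The highest count was 44, for *Rnu7*, which had 21 to 44 reads in wild type and 23 to 34 in *Tra2b-cPEko* libraries. *Rnu7* was the only 1 of the 10 to pass the filter on low counts, with a log2 fold change of 0.09 (edgeR adjusted p = 0.862). The others had too few reads to be compared.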

How the data were processed

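The authors deposited raw counts of reads for 40840 gene symbols in each mouse. The 5 summary lines that close each table entered neither library sizes nor tests. The submitters' processing notes name HISAT2 2.2.1, SAMtools 1.7.1, HTSeq 2.0.2 and deepTools 3.5.1, the methods name Salmon for quantification, and the build is GRCm39 with NCBI annotation. Whether genes were counted by strand is not given in the sources used here.

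Genotypes were taken from the labels. In edgeR 4.0.16 (R 4.3.3), filterByExpr with a least count of 10 and a least total of 15 kept 19104 genes. TMM factors, robust dispersions and a quasi-likelihood fit of genotype alone gave each p, adjusted after Benjamini-Hochberg over these genes with a threshold of 0.05. Log2 CPM used a prior count of 2. DESeq2 1.42.0 and limma 3.58.1 were alternatives. Single genes were also tested with a two-sided exact permutation test over the 70 arrangements of 8 mice. No library is a copy of another: within a genotype, chi-square over its degrees of freedom was 6.36 to 19.5 for pairs of mice.

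Genes were named by a rule: the 10 members, further Integrator genes, genes that overlap them, *Tra2b* and *Tra2a*, and from each related list the called genes and, where any had an unadjusted p under 0.05, the 2 with the lowest p. *Polr2a*, *Ppp2ca*, *Ppp2r1a* and *Brat1* were named after their values were seen. The members, lists and tests were chosen with earlier results of these data known. Positions, transcripts and sequences come from the GENCODE vM39 annotation of GRCm39, matched by symbol, and copies from BLAST+ 2.17.0. Shares of exon bases are over all GENCODE transcripts of a gene, and overlaps in the NCBI annotation were not measured. Protein sequences and splicing were not analysed here, and neither was *Ints15*. The stretch of *Ints8* with the most AGAA matches is not reported here.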

Additional observations from a re-analysis of the deposited data

Results flagged for a closer look

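Among 30 groups of 4 mice (15 Integrator genes in 2 genotypes) 2 had a mouse far from the others by Dixon's test, where chance gives about 1 in 20, or 1.5 of 30. *Ints6* in *Tra2b-cPEko* replicate B stood at 206 CPM, with the other 3 between 222 and 224 CPM. *Ints9* in wild type replicate D stood at 44.0 CPM, with the other 3 between 49.9 and 50.7 CPM.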

How the results depend on the processing

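The log2 fold change of *Ints8* was between -0.42 and -0.29 in all 20 alternatives, and between -0.39 and -0.30 with each mouse left out in turn. *Ints8* was chosen as lower in these same mice, so its kept sign is a description and not a test. *Ints11* ran from -0.19 to -0.14, called by DESeq2 and by no other alternative. Over all genes 30 were called, 14 with a mean count of at least 50, 123 without a low-count filter, 58 with upper-quartile factors, 11 with limma-voom, 12 without robust estimation, 507 with DESeq2, 156 at a threshold of 0.1, and 3 to 84 with each mouse left out. Letters A to D did not pair the mice (correlations of same-letter deviations from -0.14 to 0.12); a replicate block gave 67 calls and an *Ints8* value of -0.35, changed no call of the 10 genes, and gave *Tra2b* an edgeR adjusted p of 0.0452. Covariates chosen after seeing the data gave 46 (leptotene and zygotene list), 161 (pachytene) and 137 calls (undifferentiated spermatogonia). Since *Ints8* chose the list, its calls are given only as a description: the number of the 10 genes called lower was 1, *Ints8*, but 0 with a mean count of at least 50, with limma-voom and without robust estimation, 2 with DESeq2, and 0 or 1 with a mouse left out (0 without wild type replicate A or B or *Tra2b-cPEko* replicate A, C or D). None was called higher in any alternative. Among the related genes none was called, but 1 with DESeq2. Values at or near 0 changed sign: *Ints12* was 0.00126 with a mean count of at least 50, 0.0169 with upper-quartile factors, 0.00226 with limma-voom and -0.0269 to 0.0281 with each mouse left out, *Ints4* was -0.00320 with the undifferentiated spermatogonia list and -0.00829 to 0.0358 with each mouse left out, and *Ints14* was -0.0449 to 0.00244 with each mouse left out. The cause was not tested. The numbers of calls rest on 4 mice a genotype.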
